A study of Mus musculus with 8 samples.

Results

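The genes described here encode enzymes that write or erase chemical marks on histones and DNA. A gene belonged to the set if its single symbol in the array's annotation began with Hdac, Sirt, Kat, Kdm, Prmt, Setd or Dnmt, or if it was Ezh1, Ezh2, Eed, Suz12, Dot1l, Tet1, Tet2 or Tet3. A further 6 genes of these families were left out by name, and the brightest probe set stood for each gene. This gave 69 members among 19938 genes with a single symbol. Levels were read on 8 expression arrays of CD4 T cells stimulated through CD3 and CD28 and cultured toward the pathogenic Th17 fate with interleukins 1, 6 and 23. The arrays formed 4 groups of 2 biological replicates in 2 experiments. SRC-3-deficient cells, from mice labelled SRC-3 (f/f), were set against cells of SRC-3 wild-type mice, and RORγt-deficient cells, from RORγt (-/-) mice, against cells of RORγt wild-type mice. The labels name no Cre driver, age or sex, and do not say whether the replicates came from separate mice, so a p-value reflects only how far these samples lay apart, which may be technical spread.

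Acetyl groups on histone tails loosen chromatin and are added by lysine acetyltransferases and removed by histone deacetylases and some sirtuins. Methyl groups are added by SET domain enzymes, Dot1l and arginine methyltransferases, and lysine demethylases remove those on lysines. Polycomb repressive complex 2, built from Ezh1 or Ezh2 with Eed and Suz12, places a repressive methyl mark on histone H3. The DNA methyltransferases methylate cytosines, and the TET dioxygenases oxidise the methyl group. In CD4 T cells such enzymes help to fix or limit the cytokine genes that each helper fate can express. SRC-3 is a nuclear receptor coactivator that recruits acetyltransferases to its target genes, and RORγt is the nuclear receptor that directs Th17 differentiation.

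Values are log2 signals, on which a difference of 1 is a 2-fold change. The gene of SRC-3, Ncoa3, gave 11.15 and 10.97 on the SRC-3-deficient arrays against 11.76 and 11.53 on their wild-type arrays, so the groups did not overlap. The difference missed the threshold (limma adjusted p = 0.0567). The RORγt gene was not analysed here, and Il17a served as a check: it gave 7.52 and 7.16 on the RORγt-deficient arrays against 11.63 and 11.27 on their wild-type arrays. The 8 measured T cell markers had a mean level between 12.47 and 12.70 on every array. None of the 4 NK cell markers, 1 of the 4 B cell markers, 1 of the 7 myeloid markers and 1 of the 2 CD8 T cell markers passed the filter on dim signal. Cd8b1, the CD8 marker that passed, differed by 0.42 in SRC-3-deficient cells (adjusted p = 0.133) and by 0.18 in RORγt-deficient cells (adjusted p = 0.229). In SRC-3-deficient cells the B cell marker that passed the filter differed by 0.02 and the myeloid marker by 0.31. In RORγt-deficient cells these markers differed by −0.21 and −0.37. Neither passed the threshold in either comparison. Ms4a1, Ncr1, Adgre1 and Cd8a stayed below the filter. Sex differed between the genotypes: Xist, transcribed from the inactive X chromosome, gave 6.37 and 6.08 on the RORγt-deficient arrays against 12.55 and 12.76 on their wild-type arrays. Sex and RORγt genotype therefore cannot be told apart. In the SRC-3 experiment, deficient replicate 1 gave 7.10 for Xist and the 3 other arrays between 13.52 and 13.65.

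Of the 69 members, 63 passed the filter, which asked for a log2 signal of 7.85 on at least 2 arrays. The dim members were Hdac9, Hdac11, Kdm4d, Prmt8, Dnmt3l, a regulatory partner without catalytic activity, and Dnmt3aos, a transcript antisense to Dnmt3a rather than an enzyme gene. Their signals lay between 5.29 for Prmt8 and 7.95 for Hdac9. In a fit without the filter none of these 6 passed an adjusted p of 0.05 in either comparison (limma). An unadjusted p under 0.05 was found for Hdac11 in SRC-3-deficient cells (log2 change −0.25, adjusted p = 0.332) and for Prmt8 in RORγt-deficient cells (−0.24, adjusted p = 0.127).

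In RORγt-deficient cells, 7 of the 63 members passed the threshold, an adjusted p of 0.05 by limma over all genes. Kdm7a and Hdac8 rose, and Kat6b, Eed, Prmt5, Prmt6 and Hdac2 fell. These 7 are 11.1% of the members, while 19.4% of the 11128 genes tested passed in this comparison (10% higher and 9.37% lower), so the enzyme genes held no more calls than genes at large. The changes were small, between −0.37 for Kat6b and 0.52 for Kdm7a on the log2 scale. The median over the members was 0.02, and over all genes 0.00. At an unadjusted p under 0.05 stood 21 members, or 33.3%, and 34.6% of all genes. The groups did not overlap for 44 members, or 69.8%, beside 70% of all genes. Of these members 27 were higher and 17 lower, against 35.8% and 34.2% of all genes. In bulk samples, fewer cells of a type and less RNA per cell cannot be told apart.

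**Figure D1:**
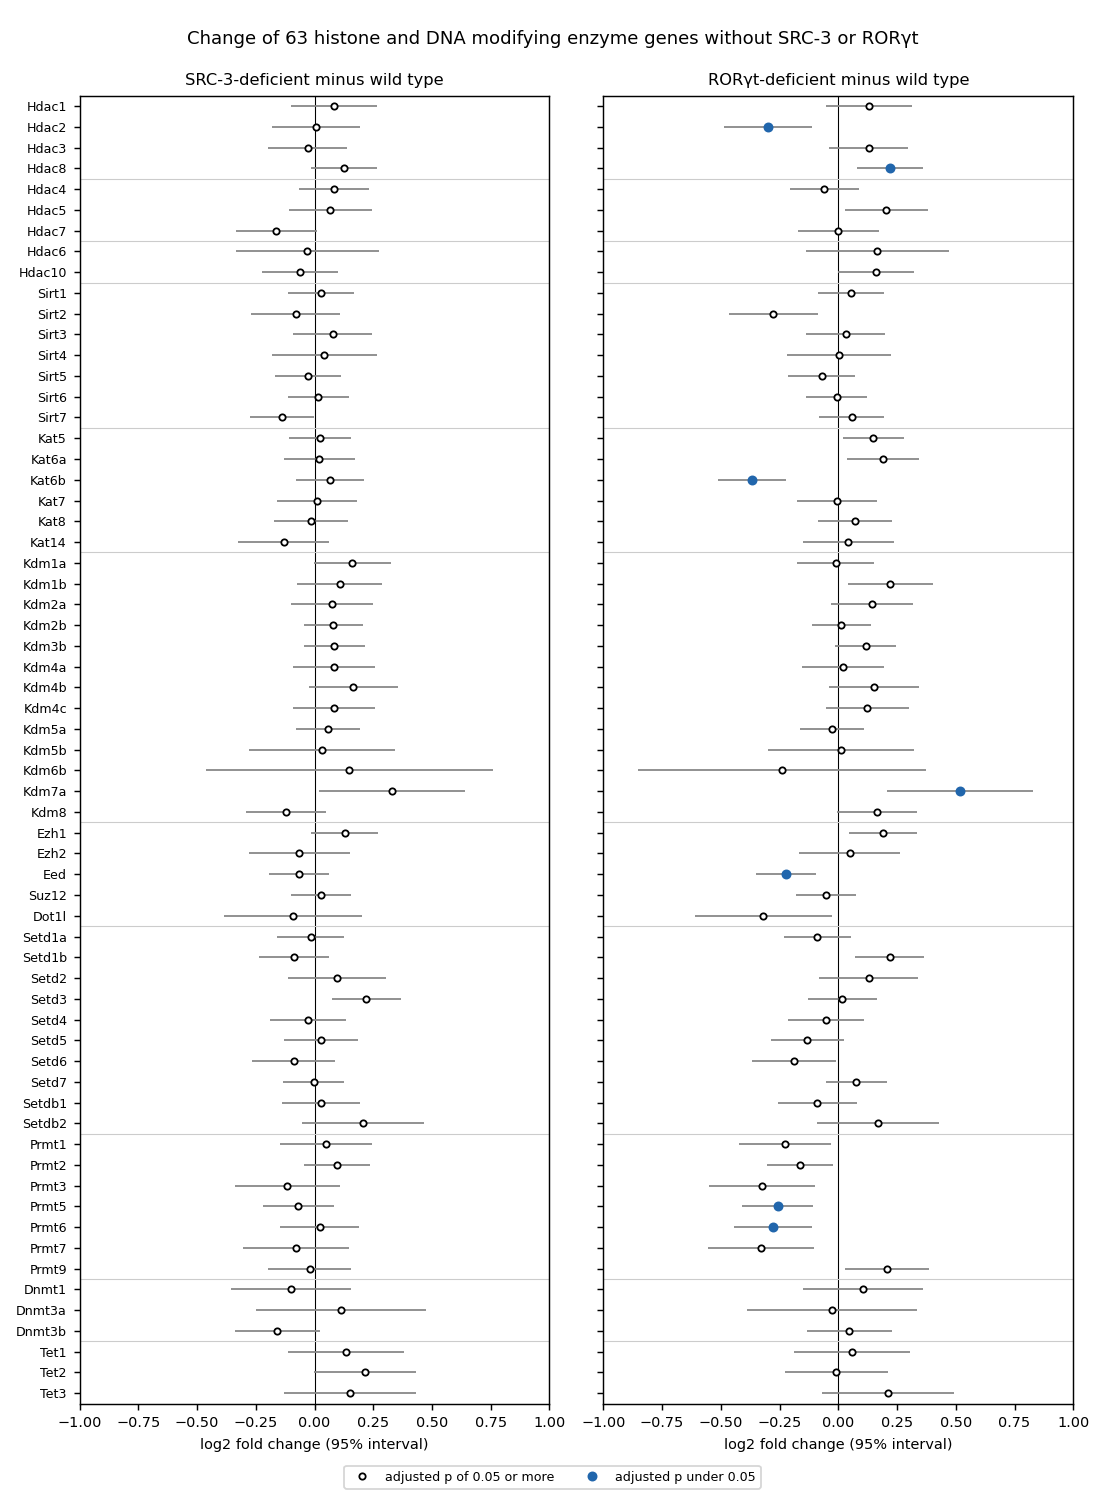
Log2 fold changes of the 63 members above the filter, with 95% intervals of the moderated fit, for SRC-3-deficient minus wild type (left) and RORγt-deficient minus wild type (right). Filled points passed an adjusted p of 0.05: 0 members on the left and 7 on the right, where Kdm7a lies farthest above 0 and Kat6b farthest below.

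The calls rest on all 4 arrays of the RORγt experiment. Leaving out RORγt-deficient replicate 1, wild-type replicate 1 or wild-type replicate 2 left 0 members past the threshold (limma, with 9, 10 and 12 at an unadjusted p under 0.05), and leaving out RORγt-deficient replicate 2 left Kat6b alone. The share of all genes that passed was lower too, at 4.26%, 5.32%, 4.83% and 8.77% in the fits without deficient replicate 1, wild-type replicates 1 and 2 and deficient replicate 2, in which the lone array is assumed to vary like the other groups. Leaving out either SRC-3 wild-type array gave 11 members, with 22.9% of all genes. With the 4 arrays of this experiment alone, 20 members passed, 10 higher and 10 lower, when 30.5% of all genes did. The 7 genes were among these 20.

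Among the class I deacetylases, of which Hdac1, Hdac2 and Hdac3 are catalytic subunits of nuclear corepressor complexes, Hdac2 fell. It gave 10.92 and 10.86 on the RORγt-deficient arrays against 11.18 and 11.20 in wild type (a log2 change of −0.30, SE 0.08, adjusted p = 0.0377). Hdac8, an X-linked gene whose enzyme also deacetylates cohesin, rose, with 8.92 and 8.95 on the deficient arrays against 8.67 and 8.75 in wild type (0.22, SE 0.06, adjusted p = 0.0416). Neither gene's genotypes overlapped. Hdac8 no longer passed when SRC-3-deficient replicate 1 (adjusted p = 0.0541) or replicate 2 (adjusted p = 0.0539) was left out, at a log2 change of 0.22 in both fits. It also did not pass after quantile normalization (adjusted p = 0.0638) or with no filter (adjusted p = 0.0772). Within the SRC-3-deficient pair, where the Xist signals were 7.10 and 13.60, Hdac8 gave 9.74 on both arrays, and Hdac6, the other X-linked member, 9.19 and 9.47. The part of sex in these values was not tested. Hdac1, the close relative of Hdac2 in the same complexes, differed by 0.13 (adjusted p = 0.289, 95% interval −0.05 to 0.31). Hdac3, the enzyme of the NCoR corepressor, also differed by 0.13 (adjusted p = 0.247).

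The other deacetylases held no call (limma). Of the class IIa enzymes, corepressors whose place in the cell follows signalling, Hdac7 was nearly equal, at 12.33 and 12.34 on the RORγt-deficient arrays against 12.33 and 12.34 in wild type (log2 change 0.00, 95% interval −0.17 to 0.17). Hdac4 differed by −0.06 and Hdac5 by 0.20 (adjusted p = 0.56 and 0.1). A second Hdac4 probe set differed by 0.06. Of the class IIb enzymes, Hdac6, an X-linked gene whose enzyme acts on tubulin, differed by 0.17 (adjusted p = 0.418), and Hdac10 by 0.16 (adjusted p = 0.151). Among the 7 sirtuins, deacylases that use NAD, the largest difference was that of Sirt2, a mainly cytoplasmic enzyme. It gave 11.83 and 11.99 on the deficient arrays against 12.12 and 12.26 on the wild-type arrays, without overlap, and missed the threshold narrowly (−0.28, adjusted p = 0.0506). The other sirtuins, the nuclear Sirt1, Sirt6 and Sirt7 and the mitochondrial Sirt3, Sirt4 and Sirt5, lay between −0.07 for Sirt5 and 0.06 for Sirt7. The adjusted p of Sirt5 was 0.463 and that of Sirt7 0.541.

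Kat6b, an acetyltransferase of the MYST family, had the smallest p of any member. Its signals were 9.99 and 10.07 on the RORγt-deficient arrays against 10.38 and 10.41 on the wild-type arrays, which is a fall to 0.776 of the wild-type level (log2 change −0.37, SE 0.06, limma adjusted p = 0.00829). Its paralogue Kat6a gave 10.54 and 10.53 on the deficient arrays against 10.35 and 10.34 on the wild-type arrays, on the other side without overlap, and did not pass (0.19, adjusted p = 0.0796). The other 4 members of this class were Kat5, the enzyme of the NuA4 complex, Kat7, Kat8 and Kat14. They lay between −0.01 for Kat7 and 0.15 for Kat5, none past the threshold.

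Kdm7a, a demethylase of repressive lysine marks, showed the largest change of any member, 1.43-fold. It gave 11.12 and 11.05 on the RORγt-deficient arrays against 10.44 and 10.70 in wild type, without overlap (log2 change 0.52, SE 0.13, adjusted p = 0.0339). A second probe set of this gene rose by 0.48 in a fit over probe sets without the filter (limma adjusted p = 0.0457). In that fit Kat6b passed too (adjusted p = 0.0141). Eed, Prmt5, Prmt6, Hdac2 and Hdac8 did not, with adjusted p between 0.0561 and 0.079. Of the 13 demethylase genes above the filter, 10 lay above 0 and 3 below, and Kdm7a alone passed. Their median was 0.12, beside 0.00 for all genes. Kdm1b, a relative of the flavin-dependent demethylase Kdm1a, differed by 0.22 (adjusted p = 0.0852). The Kdm1a difference itself was −0.01 (adjusted p = 0.929). Kdm6b, which removes the Polycomb mark and is induced by activation, had the widest interval of any member. It gave 9.91 and 10.48 on the deficient arrays against 10.38 and 10.49 on the wild-type arrays, so the groups overlapped (−0.24, 95% interval −0.85 to 0.37).

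In Polycomb repressive complex 2, Eed, the subunit that reads the Polycomb mark, fell. It gave 10.18 and 10.20 on the RORγt-deficient arrays against 10.44 and 10.38 in wild type (log2 change −0.22, SE 0.05, adjusted p = 0.0281). The groups did not overlap. A second Eed probe set, dim at a mean of 6.15, differed by −0.20 and did not pass (limma over probe sets, adjusted p = 0.343). The catalytic subunit Ezh2 gave 12.46 and 12.45 on the deficient arrays against 12.44 and 12.37 on the wild-type arrays (0.05, adjusted p = 0.762, 95% interval −0.17 to 0.26). For Suz12, the scaffold of the complex, the difference was −0.05 (adjusted p = 0.56, 95% interval −0.18 to 0.08). Ezh1, the alternative catalytic subunit, gave 11.05 and 11.00 on the deficient arrays against 10.80 and 10.87 on the wild-type arrays. The Ezh1 groups did not overlap, and the difference of 0.19 missed the threshold (adjusted p = 0.0679). Dot1l, which methylates histone H3 in its core rather than its tail, differed by −0.32 and did not pass (adjusted p = 0.117).

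Of the 10 SET domain genes, 5 lay above 0 and 5 below, and none passed (limma, 2 at an unadjusted p under 0.05). Nearest to the threshold was Setd1b, a methyltransferase of active promoters, at 10.83 and 10.73 on the RORγt-deficient arrays against 10.58 and 10.54 on the wild-type arrays (0.22, adjusted p = 0.0505). A second Setd1b probe set differed by 0.14 (limma over probe sets without the filter, adjusted p = 0.253, beside 0.0916 for the first). The related Setd1a differed by −0.09 (adjusted p = 0.348). The genes of Setd2, which methylates the body of transcribed genes, and Setdb1, which methylates silent chromatin, differed by 0.13 and −0.09 (adjusted p = 0.361 and 0.43).

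Of the 7 arginine methyltransferases above the filter, 2 fell in RORγt-deficient cells, 4 others also lay below 0 and 1 above. Of all genes 9.37% passed as lower in this comparison. The median of the 7 was −0.26, beside 0.00 for all genes. Prmt5, the main enzyme of symmetric arginine dimethylation, gave 12.06 and 12.02 on the deficient arrays against 12.27 and 12.33 in wild type (log2 change −0.26, SE 0.06, adjusted p = 0.0313). Prmt6, an enzyme of asymmetric dimethylation, gave 7.87 and 7.94 on the deficient arrays against 8.13 and 8.23 in wild type (−0.28, SE 0.07, adjusted p = 0.0338). Neither gene's groups overlapped. Prmt6 stood barely above the filter in deficient cells, and dim signal makes its values less certain.

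The other 5 members of the family did not pass. In each the deficient and wild-type arrays did not overlap, as was so for 70% of all genes in this comparison. Prmt7, an enzyme of monomethylation, gave 9.52 and 9.47 on the deficient arrays against 9.84 and 9.81 on the wild-type arrays (−0.33, adjusted p = 0.0514). Prmt3, which acts on a ribosomal protein, gave 9.88 and 10.05 on the deficient arrays against 10.30 and 10.27 on the wild-type arrays (−0.32, adjusted p = 0.0527). Prmt1, the main asymmetric enzyme, gave 10.22 and 10.12 on the deficient arrays against 10.42 and 10.38 on the wild-type arrays (−0.23, adjusted p = 0.101). These 3 and Prmt2 (−0.16, adjusted p = 0.0986) lay on the same side as Prmt5 and Prmt6. Prmt9, which methylates a splicing factor, lay on the other side, at 8.89 and 8.88 on the deficient arrays against 8.68 and 8.67 on the wild-type arrays (0.21, adjusted p = 0.0978). With the 4 arrays of the RORγt experiment alone, Prmt1, Prmt3, Prmt5, Prmt6, Prmt7 and Prmt9 passed, as did 30.5% of all genes.

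**Figure D2:**
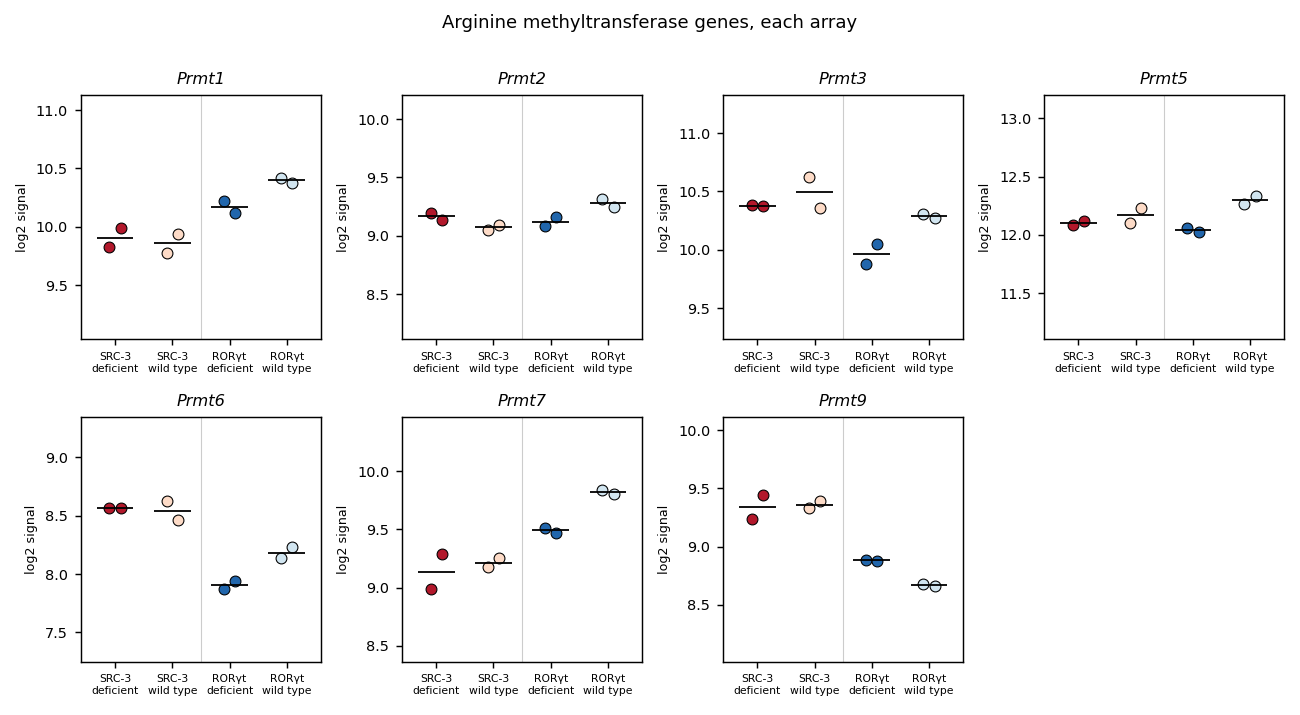
Log2 signal of the 7 arginine methyltransferase genes above the filter on each array, by group. Points are arrays, bars are means of 2 arrays, and each panel spans the same range of log2 units. In the RORγt experiment the deficient arrays lie below the wild-type arrays for 6 genes and above them for Prmt9.

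Promoter sequences are shown for 4 of the 7 called genes: the arginine methyltransferase pair that fell, and the genes with the smallest p and the largest change. RefSeq (GRCm38.p6) held windows for 59 of the 69 members, and the 250 bases before an annotated start are printed 5′ to 3′ on the gene's strand. Capitals mark matches, on either strand, to the ROR half-site AGGTCA, the E-box CACGTG, the ETS core TTCCGG or the CCAAT box CCAAT. No match shown overlaps another. The windows are Prmt5 at chr14:54517471-54517720 (minus strand), Prmt6 at chr3:110251000-110251249 (minus strand), Kat6b at chr14:21499520-21499769 (plus strand, the upstream of 2 annotated starts) and Kdm7a at chr6:39206774-39207023 (minus strand).
Prmt5: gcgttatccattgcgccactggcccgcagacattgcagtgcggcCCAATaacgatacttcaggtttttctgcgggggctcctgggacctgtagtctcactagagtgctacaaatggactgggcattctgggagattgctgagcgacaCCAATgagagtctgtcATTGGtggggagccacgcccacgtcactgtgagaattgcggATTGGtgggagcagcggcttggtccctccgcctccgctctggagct
Prmt6: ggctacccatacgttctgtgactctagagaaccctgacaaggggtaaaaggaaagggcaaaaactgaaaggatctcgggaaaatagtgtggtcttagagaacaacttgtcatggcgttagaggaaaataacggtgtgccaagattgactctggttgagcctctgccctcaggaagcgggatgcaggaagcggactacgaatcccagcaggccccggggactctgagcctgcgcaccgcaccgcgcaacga
Kat6b: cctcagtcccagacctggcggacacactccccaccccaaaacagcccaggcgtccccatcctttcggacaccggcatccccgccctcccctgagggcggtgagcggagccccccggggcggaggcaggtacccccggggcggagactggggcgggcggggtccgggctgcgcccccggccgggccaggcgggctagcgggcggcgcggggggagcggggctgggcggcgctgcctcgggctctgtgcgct
Kdm7a: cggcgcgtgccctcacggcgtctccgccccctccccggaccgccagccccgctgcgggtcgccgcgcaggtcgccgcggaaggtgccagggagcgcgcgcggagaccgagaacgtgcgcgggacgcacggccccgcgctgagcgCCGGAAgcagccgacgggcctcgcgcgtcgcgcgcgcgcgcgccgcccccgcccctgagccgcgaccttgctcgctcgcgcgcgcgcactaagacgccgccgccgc

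None of the windows of the 7 called genes held AGGTCA, which was present in 12.5% of the 80 member windows and in 14% of 32536 windows of all genes. The Prmt5 window held 4 CCAAT matches and that of Prmt6 none, while 40% of member windows and 33.8% of all windows held at least 1. Kdm7a held an ETS core, found in 22.5% of member windows and 12.1% of all windows. The E-box stood in 8.75% of member windows and 6.04% of all windows, and in no window of the called genes. The Kdm7a window was 82% G or C and that of Prmt6 54%. Absence of a motif says only that these letters do not occur in these 250 bases.

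The genes that act on DNA methylation did not pass in RORγt-deficient cells (limma, with 0 at an unadjusted p under 0.05 among the 3 DNA methyltransferases and 0 among the 3 TET genes). Dnmt1, which copies methylation onto new DNA, gave 11.85 and 11.77 on the deficient arrays against 11.74 and 11.67 on the wild-type arrays (0.11, adjusted p = 0.541). For Dnmt3a and Dnmt3b, which set new methylation, the differences were −0.03 (adjusted p = 0.925) and 0.05 (adjusted p = 0.717). Those of the TET genes were 0.06 for Tet1, −0.01 for Tet2 and 0.21 for Tet3, with adjusted p of 0.752, 0.965 and 0.26. A second Tet3 probe set differed by −0.02. In all, the 95% interval lay within a 2-fold change for each of the 63 members and within a 1.41-fold change for 57. The exceptions were Dot1l, Kat6b, Kdm6b, Kdm7a, Prmt3 and Prmt7.

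**Figure D3:**
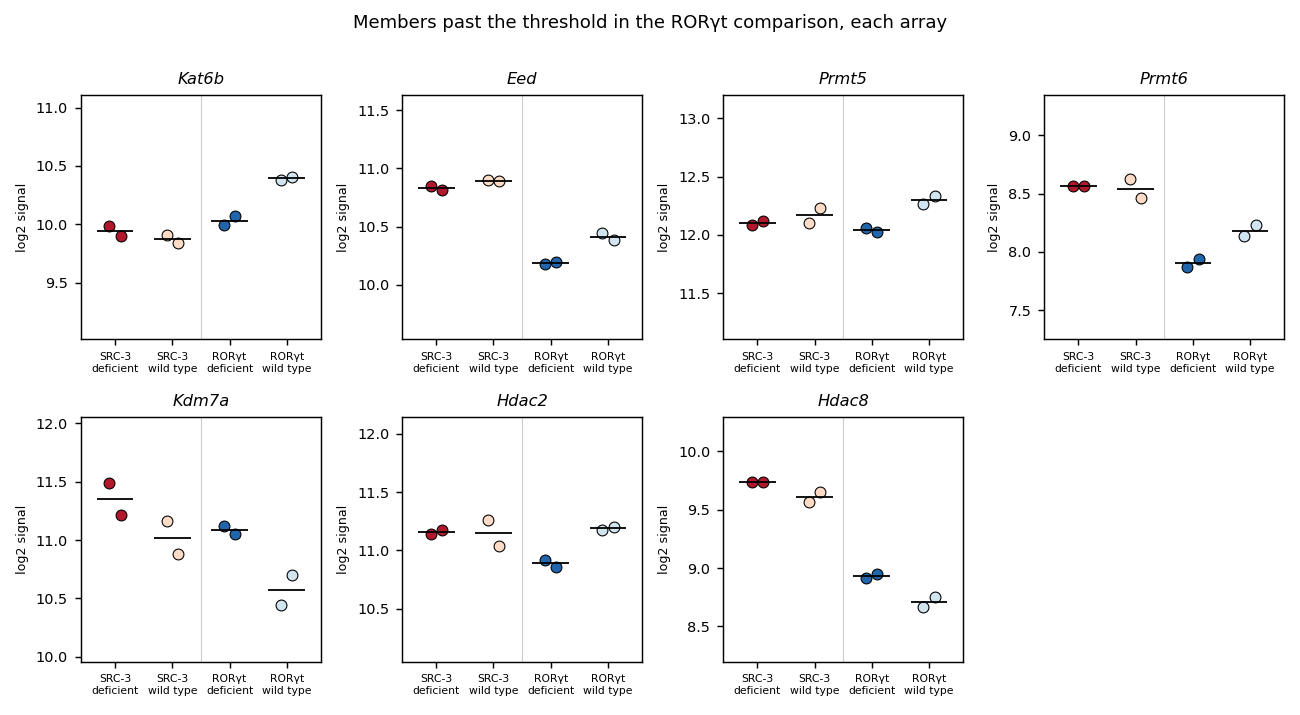
Log2 signal on each array for the 7 members past the threshold in the RORγt comparison, ordered by p. Points are arrays, bars are means of 2 arrays, and each panel spans the same range. In the RORγt experiment the deficient and wild-type arrays do not overlap for any of the 7, and Kdm7a and Hdac8 are the genes that are higher in deficient cells.

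In SRC-3-deficient cells, 0 of the 63 members passed (limma), and 3 had an unadjusted p under 0.05. These are 4.76% of the members, while 12.5% of all genes had such a p. After adjustment 0.225% of all genes passed, 0.189% higher and 0.0359% lower. The median over the members was 0.03 and over all genes 0.02. The groups did not overlap for 31.7% of the members (13 higher, 7 lower) and 37.2% of all genes (23% higher, 14.3% lower). The member with the smallest p was Setd3, which despite its family name methylates actin. It gave 10.79 and 10.77 on the deficient arrays against 10.60 and 10.52 in wild type (log2 change 0.22, SE 0.06, adjusted p = 0.215). A second Setd3 probe set differed by 0.13 (limma over probe sets without the filter, adjusted p = 0.552, beside 0.323 for the first). Next by p came Kdm7a, at 11.49 and 11.21 on the deficient arrays against 11.16 and 10.88 on the wild-type arrays (0.33, adjusted p = 0.369). The second Kdm7a probe set differed by 0.28 (limma over probe sets without the filter, adjusted p = 0.489). Sirt7, a nucleolar deacylase, gave 10.28 and 10.25 on the deficient arrays against 10.35 and 10.46 on the wild-type arrays (−0.14, adjusted p = 0.398). The groups did not overlap for these 3 genes.

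Kdm1a and Tet2 completed the 5 smallest p among members above the filter. Kdm1a gave 11.17 and 11.00 on the SRC-3-deficient arrays against 10.92 and 10.92 on the wild-type arrays (0.16, adjusted p = 0.404). Tet2 gave 11.04 and 10.89 on the deficient arrays against 10.81 and 10.69 on the wild-type arrays (0.21, adjusted p = 0.404). The groups did not overlap for either gene, and their 95% intervals ended at 0.32 for Kdm1a and 0.43 for Tet2 and just reached 0 at the other end.

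Among the Polycomb genes, Ezh2 gave 13.07 and 13.23 on the SRC-3-deficient arrays against 13.09 and 13.33 on the wild-type arrays (−0.06, 95% interval −0.28 to 0.15). For Eed, Suz12 and Ezh1 the differences were −0.06, 0.03 and 0.13 (adjusted p = 0.713, 0.906 and 0.44). The class I deacetylases lay between −0.03 for Hdac3 and 0.13 for Hdac8, and the lowest adjusted p among them was 0.44. Hdac7 had the lowest value among the 63 members above the filter, −0.16, without overlap (adjusted p = 0.419, 95% interval −0.33 to 0.01). The arginine methyltransferases lay between −0.12 for Prmt3 (adjusted p = 0.706) and 0.10 for Prmt2 (adjusted p = 0.578). Of the 13 demethylase genes 12 lay above 0 and 1 below, with a median of 0.08 beside 0.02 for all genes. The 95% interval lay within a 2-fold change for each of the 63 members and within a 1.41-fold change for 61, all but Kdm6b and Kdm7a. These intervals use a spread shared by all groups. The median SD of the members was 0.07 in SRC-3-deficient cells and 0.08 in their wild type. It was 0.04 in RORγt-deficient cells and 0.03 in their wild type. The intervals of the SRC-3 comparison may therefore be too narrow.

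Replicates of the SRC-3 experiment differed more than genotypes for many members. For 30 of the 63 the arrays within each genotype lay farther apart than the means of the genotypes, beside 11 in the RORγt experiment. The same count was not made over all genes. Their median SD was 0.07 in both SRC-3 groups, 0.04 in RORγt-deficient cells and 0.05 in the RORγt wild type, so the wider spread was not particular to the members. Kdm6b gave 9.52 and 9.07 on the SRC-3-deficient arrays against 9.48 and 8.80 on the wild-type arrays. Dnmt3a gave 10.36 and 9.99 on the deficient arrays against 10.27 and 9.85 on the wild-type arrays. Dnmt1 ran the other way, at 11.66 and 11.91 on the deficient arrays against 11.76 and 12.02 on the wild-type arrays. In all 3 genes the arrays split by replicate number and not by genotype. The mean level of 21 proliferation genes split likewise, at 11.64 and 12.00 on the deficient arrays against 11.68 and 12.04 on the wild-type arrays. Its part in the values of the members was not tested.

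**Figure D4:**
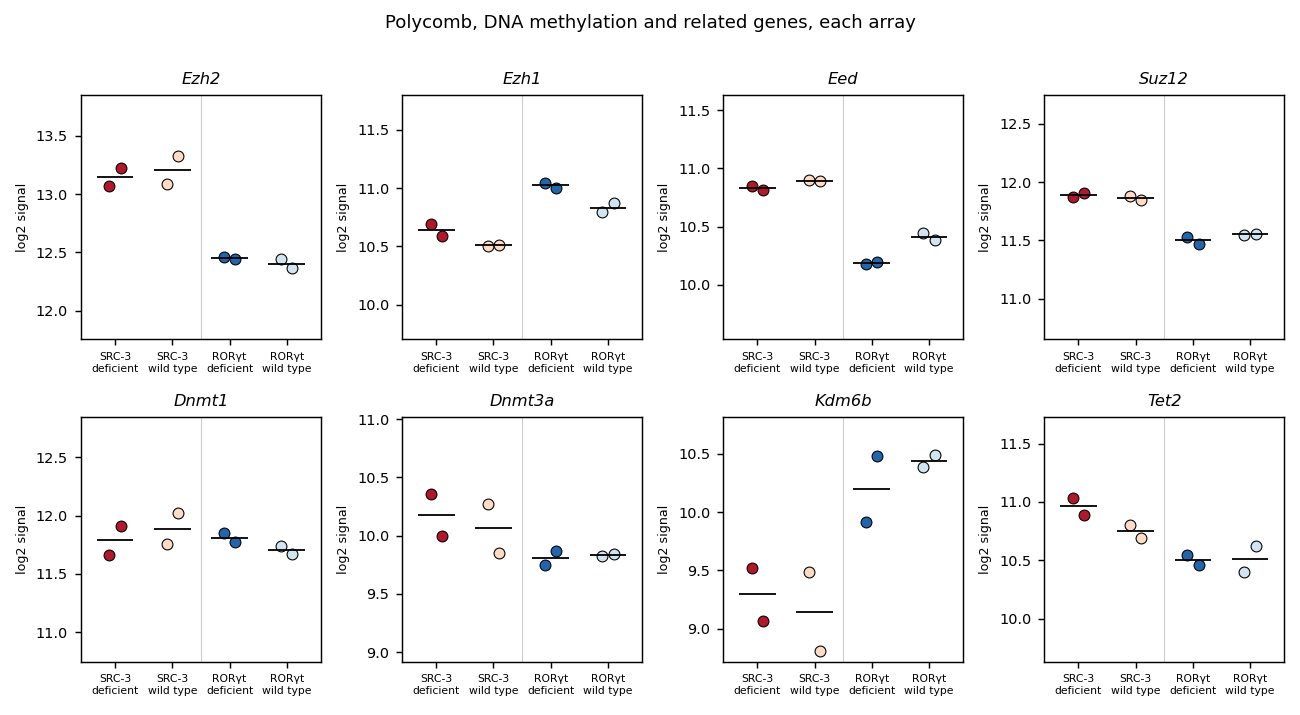
Log2 signal on each array for Polycomb, DNA methylation and related genes, with points for arrays and bars for means of 2 arrays. In the SRC-3 experiment the arrays of Dnmt1, Dnmt3a and Kdm6b lie farther apart within a genotype than the genotype means do, and in the RORγt experiment Eed alone of these 8 genes passed the threshold.

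The changes in the 2 comparisons were also tested against each other. None of the 63 members passed in this test of the difference (limma, 7 or 11.1% at an unadjusted p under 0.05, beside 17.3% of all genes). Of all genes 1.67% passed, 0.746% with a higher and 0.926% with a lower change without RORγt. Kat6b came nearest: its change without RORγt minus its change without SRC-3 was −0.43 (SE 0.09, adjusted p = 0.0629). Next came Setd1b, with 0.31 (adjusted p = 0.15), and Prmt2, with −0.26 (adjusted p = 0.192). The second Setd1b probe set gave 0.23 (limma over probe sets without the filter, adjusted p = 0.371). Effects on single members that passed without RORγt and not without SRC-3 are therefore not shown to differ between the genotypes. The signs of the changes were the same in both comparisons for 52.4% of the members and 63.8% of all genes.

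Several members stood at different levels in the experiments, whatever the genotype. The mean over 4 arrays was 9.61 in the SRC-3 experiment and 8.25 in the RORγt experiment for Setdb2, a methyltransferase of repressive marks. It was 9.47 and 10.66 for the demethylase Kdm4b, 9.22 and 10.32 for Kdm6b, 10.34 and 11.32 for Setd1a, and 13.18 and 12.43 for Ezh2, in the same order. Apart from Ezh2, which had the sixth largest gap and was named after its values were seen, these genes had the 4 largest gaps. No test was made, since culture, mice and array handling cannot be told apart between experiments.

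Partner genes from companion lists were read beside the members. The counts of calls without RORγt that follow stand beside 19.4% of all genes that passed in that comparison. In RORγt-deficient cells, Chd3, the Mi-2α helicase that works with Hdac1 and Hdac2 in the NuRD complex, rose 2.18-fold. It gave 10.87 and 10.81 on the deficient arrays against 9.71 and 9.74 in wild type (log2 change 1.12, SE 0.07, adjusted p = 0.000363). Its change in SRC-3-deficient cells was 0.33 (adjusted p = 0.124), and the difference between the changes, 0.79, passed (adjusted p = 0.0173). It and the corepressor scaffold gene Sin3a (0.27, adjusted p = 0.0432) were the calls among 21 deacetylase complex subunits, both higher. Of 19 histone methyltransferase genes outside the set, 3 rose and 2 fell. Nsd3 gave 12.13 and 12.08 on the deficient arrays against 11.48 and 11.65 on the wild-type arrays (0.54, adjusted p = 0.00515), and Kmt5c and Ehmt2 rose by 0.23 and 0.30. Smyd2 fell by 0.38 (adjusted p = 0.0055) and Smyd5 fell by 0.47 (adjusted p = 0.0132).

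Cbx7, a Polycomb complex subunit that binds the Polycomb mark, rose by 0.32 without RORγt (adjusted p = 0.0088). It was the call among 14 genes of Polycomb complex subunits outside the set, beside 19.4% of all genes. Of 22 acetyltransferase genes and subunits outside the set, Ing4 and Brpf3 rose by 0.34 and 0.32, and of 5 DNA methylation partners Uhrf2 rose by 0.25. In SRC-3-deficient cells 0 of the 81 genes of these 5 lists passed (limma), beside 0.225% of all genes. An unadjusted p under 0.05 was found for 6 of the 81 and for 12.5% of all genes. Beside these values, 2 of 21 proliferation genes rose and 1 fell without RORγt, with a median of 0.27. Their mean level was 11.92 and 11.85 on the RORγt-deficient arrays against 11.64 and 11.53 on the wild-type arrays. Ezh2 and Dnmt1, which are known to follow the cell cycle, differed by 0.05 and 0.11 in the same comparison. The part of proliferation in the members' values was not tested.

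**Figure D5:**
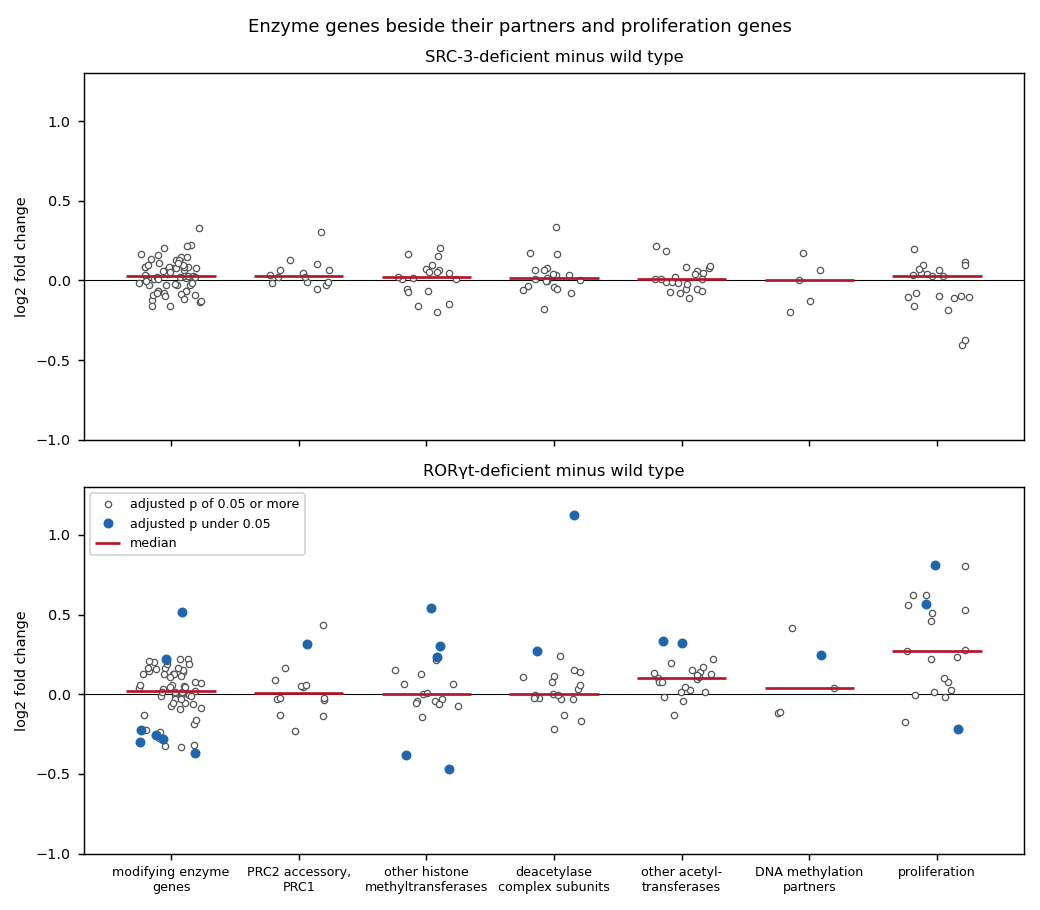
Log2 fold changes of the member genes, 5 lists of partner genes and a proliferation list, for SRC-3-deficient minus wild type (top) and RORγt-deficient minus wild type (bottom). Points are genes, filled where the adjusted p was under 0.05, and bars are medians. No gene of the lists is filled at the top, and Chd3 is the highest filled point at the bottom.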

How the data were processed

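Total RNA of 8 samples was read on 1-colour Affymetrix arrays. The deposited values are log2 signals. Per the submitters' processing notes, the authors used RMA and Expression Console; version and genome build are not given in the sources used here. The table held 35556 probe sets, of which 21789 had a single symbol in the platform annotation, 1621 had several and 12146 had none. Only the first kind was used. The values, between 3.50 and 15.03, were not normalized again.

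Probe sets below 7.85, the overall median signal, on more than 6 arrays were dropped, which left 11128 genes. Groups came from the titles. A linear model with a mean for each of the 4 groups was fitted over the 8 arrays (limma 3.58.1 under R 4.3.3, moderated by eBayes, no batch term), with 4 residual and 3.53 prior degrees of freedom. Tests were two-sided, with Benjamini-Hochberg adjustment over all genes tested and a threshold of 0.05. SEs and 95% intervals are those of the moderated fit. Members below the filter come from a fit without it. With 2 arrays a group, their number limits the precision. The fit was tested on simulated data with independent noise and the same spread in every group. That test does not cover the larger spread of the SRC-3 groups or the correlation of their same-numbered arrays.

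The members, companion lists, motifs and settings were chosen with earlier results of these data known. All members could be named. Those past the threshold, or else the 5 with the smallest p, are given on every array, as are others whatever their p. Of each companion list up to 5 called genes are named.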

Additional observations from a re-analysis of the deposited data

How the results depend on the processing

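In the SRC-3 comparison, 0 members passed under each alternative run. The lowest adjusted p for any member in these runs was 0.0927, for Kdm7a (limma, with the replicate block). In the RORγt comparison the count of 7 depended on the fit. The share of all genes called, given here in brackets, moved with it. It was 2 of 69 with no filter (9.2%), 20 with the 4 arrays alone (30.5%), 11 with an intensity trend and robust prior (20.5%), 21 with array weights (33.1%), 17 at an adjusted p of 0.1 (28.8%) and 1 at 0.01 (6.73%). Leaving out 1 array gave between 0 and 11 members (4.26% to 22.9%). It was 6 after quantile normalization (17.6%), 9 after a shift to one median (19.8%), 7 with the mean of probe sets (19.3%) and 9 of 48 with the stricter filter at 9.78 (24%), 5 of them among the 7. Fewer or more genes tested alter the adjustment, and the RORγt arrays alone had a smaller spread; other causes were not tested.

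No label pairs the replicates. The deviations of same-numbered arrays from their group means correlated across genes with r = 0.54 in the SRC-3 experiment and 0.00 in the RORγt experiment. With the replicate block, 18 members passed in the RORγt comparison, the 7 among them, with 30.7% of all genes, and 1 in the difference between the comparisons, with 8.49%. In the SRC-3 comparison 2.7% of all genes then passed. In the difference between the comparisons the count was also 1 at an adjusted p of 0.1, with 4.22% of all genes. The member was Kat6b both times, and this count was otherwise 0. It lay between 0 and 0 when 1 array was left out. The median change of the members in the SRC-3 comparison was −0.01 after quantile normalization, against 0.03 as reported, so its sign depends on the scaling. In the RORγt comparison it lay between 0.01 and 0.04. For single members, 60 results passed and 35 no longer passed under an alternative, and 0 called values changed sign.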
